A study of Mus musculus with 33 samples.

Results

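Kdm6b and 9 further histone demethylase genes (Kdm7a, Jmjd1c, Kdm3a, Kdm1a, Kdm2a, Kdm2b, Kdm4a, Kdm5a and Kdm5b) were followed through mouse blood formation. They were picked by symbol, 10 of 56748 gene IDs in the table, and all 10 were among the 20464 genes that passed the filter on low counts. RNA with poly(A) tails was sequenced from 11 bone marrow populations with 3 libraries each, 33 in all, to follow epigenetic regulators along the hierarchy that starts at the stem cell. Hematopoietic stem cells were sorted as a long-term (LT-HSC) and a short-term fraction (ST-HSC). Progenitors were sorted as multipotent ones (MPP), those common to the myeloid lineages (CMP), those of granulocytes and macrophages (GMP), those of megakaryocytes and red cells (MEP) and those common to the lymphoid lineages (CLP). Stem and progenitor cells were taken after removal of lineage-positive cells with antibodies and magnetic beads. The mature fractions were CD11b+ cells (CD11b marks myeloid cells), B220+ cells (B220 marks the B lineage) and CD3e T cells, and BM was bone marrow with no sort named. The labels give no strain, age, sex, genotype, treatment or sort gate and leave unsaid whether replicates are separate animals. Every p-value therefore measures the spread among the libraries of a population and nothing wider, and that spread may be technical.

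Histone demethylases remove methyl groups from lysines of histone tails and so reverse the marks that methyltransferases write. Kdm1a, also called LSD1, is a flavin-dependent amine oxidase, while the other members belong to the Jumonji family, whose enzymes use iron and oxoglutarate. In marrow, Kdm1a is best known as a partner of the repressors Gfi1 and Gfi1b, and Kdm6b as an H3K27 demethylase that is induced in stimulated macrophages.

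Levels below are CPM, counts scaled to a common library total, with TMM factors, which equalise libraries by their bulk of genes, given as mean ± SD of 3 libraries. Fold changes, standard errors (SE) and adjusted p-values come from edgeR's quasi-likelihood test over all 20464 genes with Benjamini-Hochberg adjustment, and a gene was called where the adjusted p was below 0.05. With bulk RNA, fewer cells of a type and less RNA per cell cannot be told apart.

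The myeloid and T cell sorts carried the genes that name them: Itgam, the CD11b gene, was at 428 ± 27 CPM in CD11b+ cells, and Cd3e at 202 ± 3.5 CPM in CD3e T cells. CLP carried the lymphoid progenitor receptors Il7r (45.7 ± 2.8 CPM) and Flt3 (253 ± 4.1 CPM), but these do not set CLP apart: CMP had Il7r at 42.9 ± 1.1 CPM and Flt3 at 743 ± 1.2 CPM, and ST-HSC had Flt3 at 295 ± 3.0 CPM. The CLP libraries stood apart from the rest. They held 277 genes with at least 10 CPM that were 5-fold or more above each of the other 10 populations, against 0 to 134 such genes elsewhere. Broadly used genes were among them, such as the kinase gene Gsk3a at 64.6 ± 2.4 CPM in CLP and 0.79 to 2.84 CPM in the others. The median exon length of the 277 genes was 5354.5 bases, against 3469 bases over all genes tested. A trend with exon length was not particular to CLP. Each gene's log2 level was taken against its median in the other populations. The rank correlation of that difference with exon length was 0.296 in CLP, -0.277 in GMP, -0.196 in MPP and -0.152 to 0.145 elsewhere. Exon lengths of the members ran from 5179 bases (Kdm1a) to 17822 bases (Jmjd1c). Actb, the cytoplasmic actin gene, was instead lowest in CLP, at 1985 ± 38 CPM against 5650 to 63390 CPM elsewhere. Values of CLP are therefore given with this difference of the CLP libraries in view. None of the 60 member results of the 6 comparisons without CLP changed its call or direction when the CLP libraries were left out of the fit. As each population has its own mean in the fit, that could alter only the filter, the TMM factors and the shared estimate of the spread. Several sorts also held transcripts of other cell types. All 5 plasma cell markers were detected in MPP, with a summed level of 12839 to 13182 CPM, and in CD3e T cells, with 16915 to 17033 CPM, against means of 141 to 2331 CPM in the other populations. The 6 basophil, mast cell and eosinophil markers were all detected in each population. Their summed means were 8882 CPM in MPP, 9224 CPM in CLP, 6286 CPM in CD3e T cells and 5499 CPM in BM. GMP had 3790 CPM and CD11b+ cells 3316 CPM, against 12.9 to 208 CPM elsewhere. These sums rest on different genes: Prg2 and Epx were at 2575 and 505 CPM in GMP but at 43.9 and 4.71 CPM in CD3e T cells. The 6 macrophage markers were at 4609 CPM in MPP and 22.03 CPM in CMP, and the 7 neutrophil markers at 12880 CPM in CD3e T cells and 9183 CPM in B220+ cells. The 8 stromal and endothelial markers were at 3261 CPM in LT-HSC and 2159 CPM in CLP, against 18.8 to 400.4 CPM elsewhere. The part of these transcripts in the results was not tested.

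Kdm6b, which removes the repressive methylation of H3K27, had the largest fold change of the 10 members in CMP against MPP, GMP against CMP and MEP against CMP. Its CPM in the replicates was 26.4, 31.6 and 29.5 in LT-HSC, and 42.9, 45.3 and 44.2 in ST-HSC. In MPP the libraries gave 10.65, 11.11 and 11.01 CPM, and in CMP 84.0, 85.5 and 89.0 CPM. CMP libraries were thus above those of every other population, and the MPP libraries lay below all stem cell libraries. Beyond CMP, Kdm6b stood at 6.22, 8.32 and 6.67 CPM in GMP, 11.9, 9.96 and 10.4 CPM in MEP, and 47.1, 43.7 and 48.2 CPM in CLP. In mature cells it stood at 44.8, 55.0 and 52.2 CPM in CD11b+ cells, and on average at 13.2 ± 0.43 CPM in B220+ cells and 21.5 ± 1.3 CPM in CD3e T cells, with 27.5 ± 0.99 CPM in BM. In the order of means, CMP was followed by CD11b+ cells, CLP, ST-HSC, LT-HSC, BM, CD3e T cells, B220+ cells, MPP, MEP and GMP. Libraries overlapped between CD11b+ cells and CLP, CLP and ST-HSC, LT-HSC and BM, and MPP and MEP, so these neighbours were not separated. From GMP to CMP the means span 12.2-fold, against a median span of 7.74-fold over the 11692 genes that reached 10 CPM in a population.

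Kdm6b was 4.05-fold lower in MPP than in ST-HSC (10.9 ± 0.24 against 44.1 ± 1.2 CPM, log2 fold change -2.02, SE 0.076, adjusted p = 3.2e-30). CMP then stood 7.92-fold above MPP (86.2 ± 2.6 against 10.9 ± 0.24 CPM). On both branches below CMP the gene fell, by 11.9-fold in GMP and by 7.88-fold in MEP, with log2 fold changes of -3.58 (SE 0.079) and -2.98 (SE 0.067). It was higher again in CD11b+ cells, which are mature myeloid cells, by 7.05-fold over GMP (50.7 ± 5.3 against 7.07 ± 1.1 CPM). CLP were 4.26-fold above MPP, while B220+ cells were 3.53-fold and CD3e T cells 2.15-fold below CLP. These lymphoid values depended on a trend across libraries with GC content and exon length: with that trend taken out, the log2 fold change was 0.97 for CLP against MPP, -0.60 for B220+ cells against CLP, and 0.01 in place of -1.11 for CD3e T cells against CLP. The antisense gene Kdm6bos overlaps 4.11% of the exon bases of Kdm6b. As strand use in counting is not stated, how reads in that stretch were assigned is not known. Kdm6bos itself was at 0.842 CPM in CLP and below that elsewhere.

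Jmjd1c, a member of the H3K9 demethylase family of Kdm3a, was highest in CMP and lowest in GMP, as Kdm6b was. Its libraries gave 188.1, 189.9 and 189.1 CPM in CMP, 51.7, 50.5 and 51.1 CPM in MPP, and 166, 159 and 158 CPM in ST-HSC. GMP had 26.1, 26.9 and 21.7 CPM. No library of CMP overlapped one of another population, and no GMP library overlapped one either. ST-HSC (161 ± 4.3 CPM) and CLP (156 ± 4.7 CPM) came next and overlapped, followed by LT-HSC (124 ± 2.3 CPM), B220+ cells (90.1 ± 2.4 CPM) and BM (81.3 ± 4.3 CPM). CD11b+ cells (75.3 ± 0.69 CPM) and MEP (74.1 ± 2.1 CPM) overlapped, and CD3e T cells stood at 62.3 ± 2.5 CPM.

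In the tests, Jmjd1c was 3.15-fold lower in MPP than in ST-HSC, 3.70-fold higher in CMP than in MPP, 7.48-fold lower in GMP than in CMP and 2.54-fold lower in MEP than in CMP. CD11b+ cells stood 2.98-fold above GMP (log2 fold change 1.57, SE 0.054, adjusted p = 7.9e-53). CLP were 3.06-fold above MPP. With the trend on GC content and exon length taken out, these log2 fold changes kept their direction at smaller sizes (-1.04 for MPP against ST-HSC, -1.79 for GMP against CMP, -0.58 for MEP against CMP, 0.81 for CD11b+ cells against GMP and 0.54 for CLP against MPP). B220+ cells were 1.74-fold below CLP, where that setting turned the sign (0.15). CD3e T cells were 2.52-fold below CLP (-0.33 under the same setting, in place of -1.33). Over the 11 population means of log2 CPM, Kdm6b and Jmjd1c had r = 0.819, and r = 0.802 over the 10 populations without CLP, a description over points that share library depth and scaling.

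**Figure D1:**
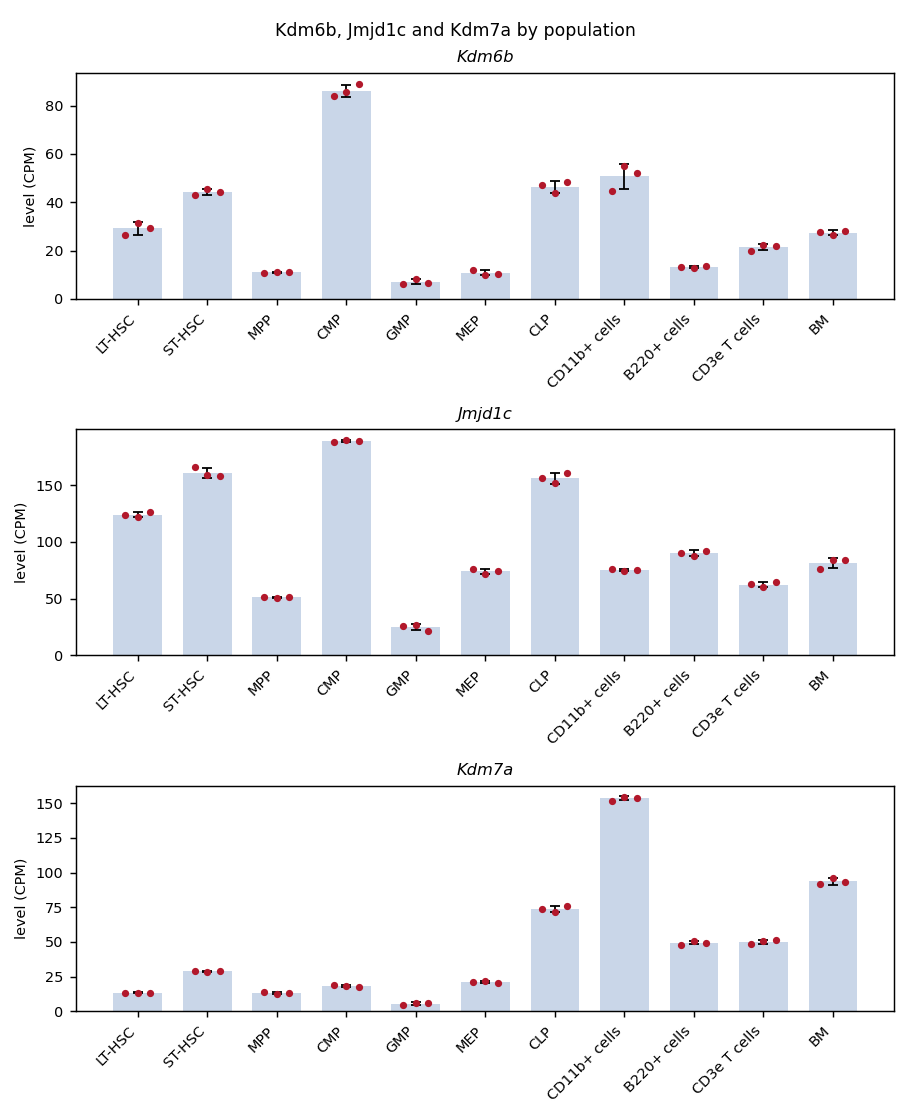
Level in CPM of Kdm6b, Jmjd1c and Kdm7a (y axes, linear, from 0) in the 11 populations (x axis). Bars are means of 3 libraries, error bars SD and points single libraries. Kdm6b and Jmjd1c peak in CMP (86.2 and 189 CPM), Kdm7a in CD11b+ cells (153 CPM), and the 3 genes are lowest in GMP.

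Kdm7a, which removes methyl groups from H3K9 and H3K27, had its highest level in mature myeloid cells. The libraries of CD11b+ cells gave 152, 155 and 154 CPM and those of GMP 4.20, 6.32 and 6.25 CPM. CD11b+ cells were 27.2-fold above GMP (log2 fold change 4.76, SE 0.063, adjusted p = 6.3e-96), with no overlap between their libraries. BM (93.6 ± 2.3 CPM) and CLP (73.6 ± 2.4 CPM) followed, then CD3e T cells (50.1 ± 1.3 CPM) and B220+ cells (49.4 ± 1.2 CPM), whose libraries overlapped. Neutrophil markers were high in the same fractions at the top of this order: all 7 were detected, with a summed level of 197256 to 200726 CPM in CD11b+ cells and a mean of 240600 CPM in BM, against 69.3 CPM in CLP. The part of neutrophil content in the level of Kdm7a was not tested.

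Among stem and progenitor cells, Kdm7a was 2.15-fold higher in ST-HSC (29.0, 28.2 and 29.0 CPM) than in LT-HSC (13.5, 13.5 and 13.2 CPM). It was the single member that passed the 2-fold line between these stem cell sorts. MPP were 2.18-fold below ST-HSC, and GMP were 3.22-fold below CMP (5.59 ± 1.2 against 18.3 ± 0.52 CPM), with a log2 fold change of -1.69, or -0.82 with the GC and length trend taken out. CMP and MPP differed by 0.46 on the log2 scale, a sign that turned to -0.04 under the same setting. MEP were above CMP by 0.20, which turned to -0.71 with scaling by library size alone. CLP were 5.60-fold above MPP (2.49, or 1.53 without the trend). The falls in B220+ cells and CD3e T cells against CLP (-0.58 and -0.56) turned to 0.26 and 0.40 without it.

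Kdm3a, an H3K9 demethylase, was more even, with a span of 2.58-fold. CD3e T cells (73.3 ± 0.51 CPM) and CLP (72.2 ± 2.1 CPM) led with overlapping libraries, and MEP (28.4 ± 1.7 CPM) and GMP (30.6 ± 2.8 CPM) were lowest and overlapped too. GMP were 1.82-fold and MEP 2.004-fold below CMP (56.6 ± 3.6 CPM). The rise of 1.73-fold in CLP over MPP was no longer called with the GC and length trend taken out (log2 fold change 0.04). Between CD3e T cells and CLP the log2 fold change was 0.02 (SE 0.038, adjusted p = 0.61), called higher with RLE factors (0.09), by DESeq2 (0.09) and without the trend (0.75), and called lower with library size alone (-0.14). Likewise ST-HSC and LT-HSC were not separated either (0.05, SE 0.037, adjusted p = 0.26), though a fit of these populations alone called the gene higher (adjusted p = 0.040).

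Kdm1a and Kdm4a had one peak each, in CLP, and were low everywhere else. Kdm1a removes mono- and dimethylation of H3K4, and Kdm4a removes trimethylation of H3K9 and H3K36. Kdm1a had 83.2, 83.3 and 91.4 CPM in CLP, and the next population, CMP, had 12.9, 12.5 and 13.3 CPM. Kdm4a had 87.8, 88.8 and 94.2 CPM in CLP, and the next, B220+ cells, 10.4, 8.91 and 9.05 CPM. The libraries of CLP thus stood far above all others for both genes.

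CLP were 13.9-fold above MPP for Kdm1a (log2 fold change 3.80, SE 0.065) and 27.5-fold for Kdm4a (4.78, SE 0.077). B220+ cells were 10.7-fold below CLP for Kdm1a and 9.73-fold for Kdm4a. CD3e T cells were 8.15-fold and 26.5-fold below CLP. Both genes are among the 277 genes by which the CLP libraries stand apart, and the part of those libraries' overall difference in these values was not tested. Without CLP the span of Kdm1a over populations dropped to 2.30-fold, in place of 15.3-fold, and that of Kdm4a to 2.90-fold, in place of 27.6-fold. The correlation of their population means, r = 0.883 over 11 populations, was -0.10 over the other 10.

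Outside CLP the differences were small. Kdm1a was 2.09-fold higher in CMP than in MPP (12.9 ± 0.41 against 6.23 ± 0.31 CPM), 1.74-fold lower in GMP than in CMP and 1.42-fold lower in MEP than in CMP. Its rise of 1.13-fold in ST-HSC over LT-HSC (adjusted p = 0.017) was not called without the filter (0.062), by DESeq2 (0.073), without LT-HSC replicate 1 (0.075) or without LT-HSC replicate 2 (0.062). Its fall of 1.32-fold in CD11b+ cells against GMP was not called with library size alone or without GMP replicate 2. Kdm4a was 1.84-fold lower in MPP than in ST-HSC and 1.68-fold higher in CMP than in MPP, from 143 reads over the 3 MPP libraries. Its rise in CD11b+ cells over GMP (adjusted p = 0.018) was not called in a fit of these populations alone, nor without GMP replicate 1, CD11b+ cells replicate 1 or CD11b+ cells replicate 3. Kdm4a was not separated between ST-HSC and LT-HSC (adjusted p = 0.30, or 0.048 with the GC and length trend taken out). Nor was it between MEP and CMP (adjusted p = 0.097), where RLE factors (0.042), a fit of these populations alone (0.042) and library size alone (1.4e-15) called it lower.

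**Figure D2:**
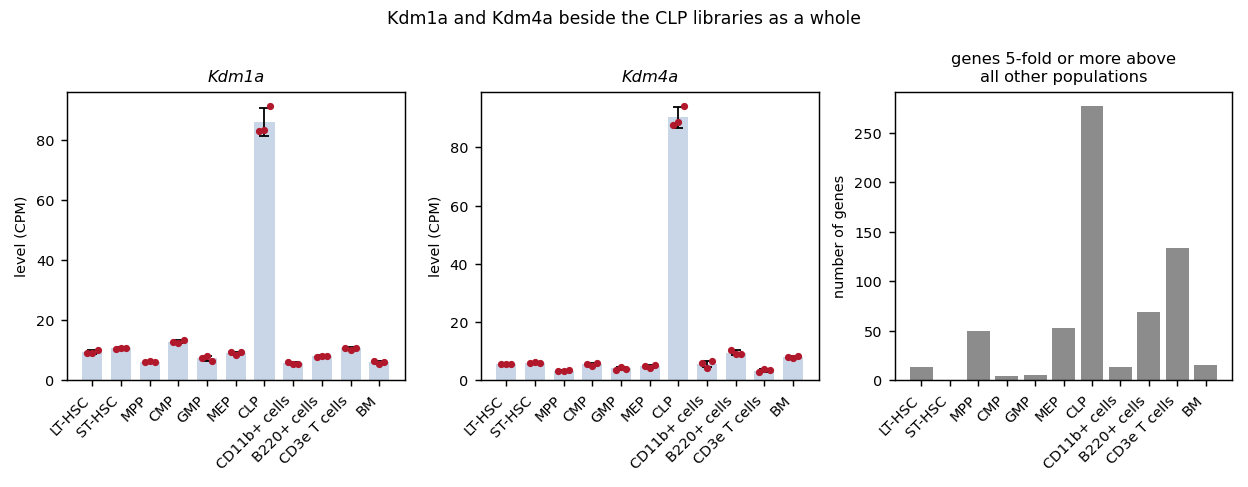
Level in CPM of Kdm1a and Kdm4a by population (bars are means of 3 libraries, error bars SD, points libraries) and, at the right, the number of genes with at least 10 CPM that are 5-fold or more above each other population. The CLP bar is highest in all panels, at 86.0 CPM, 90.3 CPM and 277 genes.

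For 7 members RefSeq gives a promoter window (250 bases before to 50 after a start that RefSeq lists, build GRCm38.p6). The windows of Kdm1a and Kdm4a are shown because these genes peak in the same libraries, and those of Jmjd1c and Kdm7a because their levels had the widest spans of the 7 without CLP. The start for Jmjd1c is an internal one, 30963 bases inside the gene model used for exon lengths, and that for Kdm2b lies 1316 bases inside, while the other 5 lie within 73 bases of the model's start. All are written 5′ to 3′ on the strand of the gene, and capitals mark a match to an AP-1 site.
Kdm1a (chr4:136602674-136602973, minus strand): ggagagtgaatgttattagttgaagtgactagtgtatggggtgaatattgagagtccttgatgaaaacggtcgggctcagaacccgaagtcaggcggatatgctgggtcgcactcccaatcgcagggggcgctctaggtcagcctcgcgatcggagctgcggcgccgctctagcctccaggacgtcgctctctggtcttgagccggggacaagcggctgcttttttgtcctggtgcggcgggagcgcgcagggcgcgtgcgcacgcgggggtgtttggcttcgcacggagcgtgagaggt
Kdm4a (chr4:118179994-118180293, minus strand): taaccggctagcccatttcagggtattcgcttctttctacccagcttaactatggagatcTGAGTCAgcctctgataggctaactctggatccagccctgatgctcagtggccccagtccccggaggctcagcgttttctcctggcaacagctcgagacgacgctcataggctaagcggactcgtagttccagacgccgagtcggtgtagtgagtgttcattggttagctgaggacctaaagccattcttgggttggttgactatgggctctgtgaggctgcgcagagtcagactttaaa
Jmjd1c (chr10:67126838-67127137, plus strand): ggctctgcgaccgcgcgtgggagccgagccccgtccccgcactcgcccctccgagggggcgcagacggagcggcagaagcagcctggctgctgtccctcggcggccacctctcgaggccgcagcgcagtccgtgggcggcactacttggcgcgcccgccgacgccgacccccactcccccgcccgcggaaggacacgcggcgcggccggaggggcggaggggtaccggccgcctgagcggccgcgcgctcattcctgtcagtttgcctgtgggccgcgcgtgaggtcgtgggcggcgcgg
Kdm7a (chr6:39206724-39207023, minus strand): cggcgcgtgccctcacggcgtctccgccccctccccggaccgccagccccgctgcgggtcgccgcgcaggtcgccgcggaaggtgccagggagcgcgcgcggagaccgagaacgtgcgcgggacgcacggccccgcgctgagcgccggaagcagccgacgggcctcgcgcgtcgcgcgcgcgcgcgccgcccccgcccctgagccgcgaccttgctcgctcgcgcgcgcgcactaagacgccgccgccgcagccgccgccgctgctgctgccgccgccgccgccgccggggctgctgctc
Kdm7a held 65 CG dinucleotides in its 300 bases, Jmjd1c 47, Kdm1a 29 and Kdm4a 13, against a median of 7 over 27025 promoters. Kdm3a held 24, Kdm2b 18 and Kdm5b 17. Both strands were searched for CRE (TGACGTCA), AP-1 (TGAGTCA or TGACTCA), the E-box CACGTG and a STAT motif (TTCCNGGAA), none of which contains another. The AP-1 letters begin at base 61 of the Kdm4a window and are held by 5.17% of all promoters. The other motifs are held by 1.88%, 7.24% and 1.15% of promoters in the order CRE, E-box and STAT, and no other member's window held any of the 4. A match describes letters in a window and not a bound site.

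Kdm2a and Kdm2b, paralogs that remove H3K36 dimethylation and bind unmethylated CpG islands through a CXXC domain, followed different paths. Kdm2a gave 153, 147 and 164 CPM in CLP, 97.3, 101 and 98.9 CPM in CMP, 32.3, 30.3 and 31.2 CPM in MEP, and 34.9, 36.5 and 33.4 CPM in GMP. It was 2.30-fold higher in CMP than in MPP, 2.82-fold lower in GMP than in CMP and 3.15-fold lower in MEP than in CMP. In MPP it was 2.01-fold below ST-HSC, and in CLP 3.59-fold above MPP. With the GC and length trend taken out, GMP against CMP was -0.77 in place of -1.50 and CLP against MPP 0.83 in place of 1.84. Under that setting the rise in CD11b+ cells over GMP (0.43) turned to -0.12 on the log2 scale. B220+ cells and CD3e T cells were 2.30-fold and 2.17-fold below CLP, values that shrank to -0.27 and -0.15 on the log2 scale.

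Kdm2b, which recruits the Polycomb complex PRC1.1 to CpG islands, was instead highest in MEP, with 101, 93.3 and 93.5 CPM, and lowest in CD11b+ cells, with 28.5, 25.5 and 28.05 CPM. Its level was higher in all progenitor sorts from MPP onward (64.2 to 96.0 CPM on average) than in stem cells (46.2 and 50.4 CPM) and in the mature fractions and BM (27.3 to 41.2 CPM), with no overlap of libraries. CD11b+ cells were 2.73-fold below GMP (log2 fold change -1.45, SE 0.051, adjusted p = 4.4e-52). Kdm2b was the only member that was higher in MPP than in ST-HSC (0.35) and, beside Kdm7a, in MEP than in CMP (0.29), but library size alone turned these to -0.64 and -0.63. The rise in CLP over MPP (0.28) turned to -0.62 with the GC and length trend taken out. GMP and CMP differed by -0.09 (adjusted p = 0.032), which was not called without CMP replicate 2, CMP replicate 3 or GMP replicate 1 and was 0.17 without the trend. The fall in B220+ cells against CLP (-0.90) was not called without the trend, and that in CD3e T cells against CLP (-1.08) was -0.19. The means of Kdm2b and Kdm7a ran opposite over the populations (r = -0.637, n = 11, and -0.798 without CLP). Kdm2b shares 5.77% of its exon bases with Rnf34 on the opposite strand. How reads in that stretch were assigned is not stated, so the counts of Kdm2b may be too high or too low there. Kdm7a shares 2.85% of its exon bases with an antisense gene and Kdm5a 1.77% with Ccdc77, with the same limit.

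Kdm5a and Kdm5b, which remove trimethylation of H3K4, varied little, by 2.64-fold and 2.22-fold over the populations. Kdm5a was highest in CMP (123 ± 2.3 CPM) and B220+ cells (123 ± 0.66 CPM), whose libraries overlapped, and lowest in GMP (46.8 ± 2.5 CPM). GMP were 2.64-fold below CMP, a log2 fold change of -1.40, or -0.47 with the GC and length trend taken out. Its rise of 1.65-fold in CD11b+ cells over GMP was not called under that setting, and its fall in MPP against ST-HSC (-0.37) turned to 0.17. Kdm5b was highest in ST-HSC (70.8 ± 0.91 CPM) and lowest in B220+ cells (31.9 ± 1.1 CPM) and GMP (32.2 ± 0.47 CPM), which overlapped. It was 1.83-fold lower in GMP than in CMP and 1.86-fold higher in CD11b+ cells than in GMP. Without the trend these log2 fold changes were 0.01 and 0.24.

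**Figure D3:**
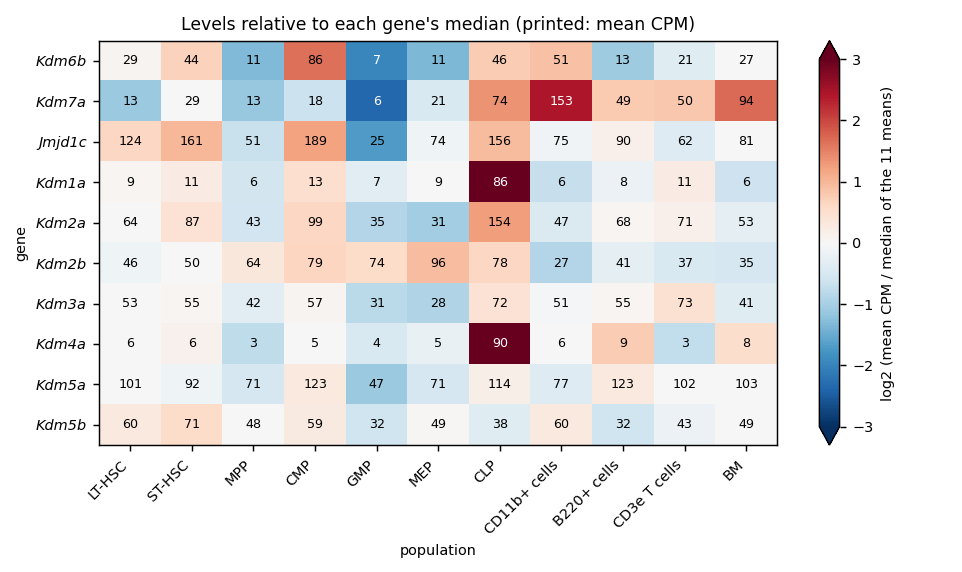
Mean CPM of the 10 members (rows, numbers printed in the cells) in the 11 populations (columns), coloured by the log2 ratio to the median of the gene's 11 means. Colours saturate at -3 and 3, which 2 cells pass, Kdm1a and Kdm4a in CLP. The GMP column is the lowest for 4 members and CLP the highest for 3.

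Per kilobase of exon, the scale on which genes can be set beside each other, the highest member differed by population. The level of Kdm1a was 16.6 CPM per kb and that of Kdm4a 15.6 CPM per kb in CLP, Kdm7a had 15.3 CPM per kb in CD11b+ cells, and Kdm6b 12.4 CPM per kb in CMP, ahead of Jmjd1c with 10.6 CPM per kb. In LT-HSC Kdm5a (7.14 CPM per kb) and Jmjd1c (6.97 CPM per kb) led and Kdm4a (0.97 CPM per kb) was lowest. In GMP Kdm2b (6.82 CPM per kb) led and Kdm7a (0.56 CPM per kb) was lowest. Each gene's exon length here counts every annotated exon, so a gene with rarely used exons appears lower.

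Step by step, the members are set beside the share of all genes called in the same comparison. Neighbouring comparisons share libraries (ST-HSC, MPP, CMP, GMP and CLP each serve in several), so their opposite signs are not separate observations. At the first step, ST-HSC against LT-HSC, 8 of 10 members were called, 7 higher and 1 lower. Of all genes 63.9% were called, 29.8% higher and 34.1% lower. Only Kdm7a was 2-fold higher and none was 2-fold lower, with backgrounds of 8.98% and 11.6%. The median log2 fold change of the members was 0.22, against -0.01 over all genes.

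In MPP against ST-HSC, 9 members were lower and 1, Kdm2b, higher, where 73.6% of genes were called, 40.0% lower and 33.6% higher. Of these, 4 (Kdm6b, Jmjd1c, Kdm7a and Kdm2a) were 2-fold lower, against 21.4% of all genes, and 0 were 2-fold higher, against 14.7%. The number 2-fold lower was 2 with the GC and length trend taken out and 9 with library size alone. The median was -0.83, against -0.11 over all genes. In CMP against MPP, all 10 members were called higher, where 70.0% of genes were called, 35.0% higher. Here 4 members (Kdm6b, Jmjd1c, Kdm2a and Kdm1a) were 2-fold higher, against 15.9% of genes, and 0 were 2-fold lower, against 15.4%. With library size alone, 8 were 2-fold higher. The median was 0.77, against 0.01. The summed plasma cell markers were at 290 CPM in CMP against 13011 CPM in MPP, and their part at this step was not tested. With the GC and length trend taken out, 8 members were called higher at this step, 3 of them 2-fold. The rises of Kdm7a (0.46) and Kdm5b (0.29) then turned sign (-0.04 and -0.08).

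In GMP against CMP, all 10 members were lower, where 73.7% of genes were called, 41.9% lower. A 2-fold fall was seen for 5 (Kdm6b, Jmjd1c, Kdm7a, Kdm2a and Kdm5a), against 27.9% of genes, and a 2-fold rise for 0, against 15.8%. The count of 2-fold falls depended on the processing: it was 2 with the GC and length trend taken out (Kdm6b and Jmjd1c), with Kdm2b then called higher, and 10 with library size alone. The median was -1.13, against -0.22. The summed basophil, mast cell and eosinophil markers were at 3790 CPM in GMP, against 28.5 CPM in CMP. In MEP against CMP, 9 members were called, 7 lower and 2 higher, where 78.3% of genes were called. A 2-fold fall was seen for 4 (Kdm6b, Kdm2a, Jmjd1c and Kdm3a), against 34.1% of genes, a share close to the background, and a 2-fold rise for 0, against 18.9%. Without the trend 2 fell 2-fold, and with library size alone 8. The median was -0.65, against -0.25, and Kdm5b (-0.23) turned to 0.46 with the GC and length trend taken out.

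In CD11b+ cells against GMP, 8 members were higher and 2 (Kdm2b and Kdm1a) lower, where 74.2% of genes were called. Kdm7a, Kdm6b and Jmjd1c were 2-fold higher, 3 of 10 against 30.9% of genes, and Kdm2b 2-fold lower, 1 of 10 against 21.4%, both at or below the background. With library size alone 6 were 2-fold higher, and without GMP replicate 2 Kdm2b alone was called lower. The median was 0.72, against 0.25.

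In CLP against MPP, 9 members were higher and Kdm5b lower (-0.35, or 0.23 with library size alone), where 76.9% of genes were called. The 2-fold line was passed upward by 6 members (Kdm4a, Kdm1a, Kdm7a, Kdm6b, Kdm2a and Jmjd1c), against 28.1% of genes, and downward by 0, against 22.4%. With the GC and length trend taken out, 3 members (Kdm4a, Kdm1a and Kdm7a) were 2-fold higher, 1 was 2-fold lower and 3 in all were called lower. The median was 1.73, against 0. Kdm5a, 1.60-fold higher, turned to -0.37 on the log2 scale with the GC and length trend taken out. In B220+ cells against CLP, 9 members were lower and Kdm5a higher (0.12, or -0.01 with library size alone). Of all genes 82.0% were called, 42.5% lower and 39.5% higher. Among the members 4 were 2-fold lower, against 30.6% of genes, and 0 were 2-fold higher, against 24.2%. Without the trend 4 members were lower and 5 higher, with 2 past 2-fold downward and 1 upward. The median was -0.85, against -0.04. In CD3e T cells against CLP, 8 members were lower and 1 higher, where 82.2% of genes were called, 41.7% lower and 40.5% higher. Among the members 6 were 2-fold lower, against 29.8% of genes, and 0 were 2-fold higher, against 25.8%. Without the trend 5 were lower and 4 higher (Kdm7a, Kdm3a, Kdm5a and Kdm5b), with 2 past 2-fold downward (Kdm1a and Kdm4a) and 1 upward (Kdm5b). The median was -1.09, against 0. The summed plasma cell markers were at 16983 CPM in CD3e T cells against 297 CPM in CLP, and the neutrophil markers at 12880 against 69.3 CPM. These last comparisons share the CLP libraries that stand apart, and with the trend taken out Kdm3a and Kdm5b turned to 0.32 and 0.73 in B220+ cells, and Kdm7a and Kdm5a to 0.40 and 0.82 in CD3e T cells. The rise of Kdm5b in CD3e T cells over CLP (0.19) was not called with library size alone (0.03).

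**Figure D4:**
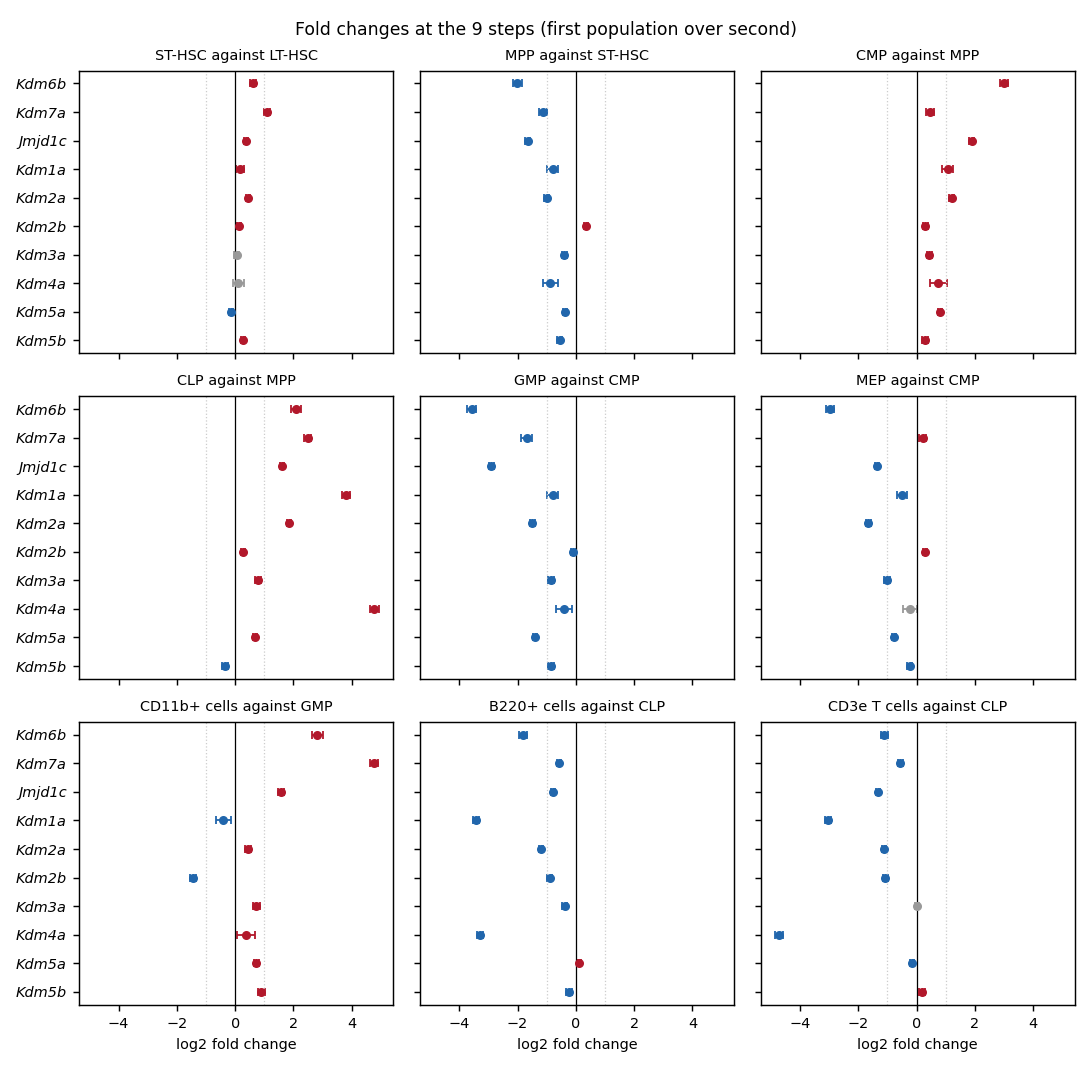
Log2 fold change of the 10 members (rows) at the 9 steps (panels, the population named first over that named second). Points are edgeR estimates and bars reach 2 SE to each side; red is called higher, blue called lower, grey not called, and dotted lines mark 2-fold. All points lie at the right in CMP against MPP and at the left in GMP against CMP.

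The other histone demethylases, CoREST and PRC1.1 partners and mark writers are given with the shares of all genes called. In CMP against MPP these were 35.0% higher and 35.0% lower, in GMP against CMP 31.8% higher and 41.9% lower, in MEP against CMP 34.1% higher and 44.3% lower, in CLP against MPP 39.6% higher and 37.4% lower, and in CD11b+ cells against GMP 41.3% higher and 32.8% lower. The lists are short, and those values for CLP rest on the libraries that stand apart. Of 14 other histone demethylases tested (16 listed), 9 were higher, 3 lower and 2 not called in CMP against MPP, with 1 in each direction past 2-fold, and 3 were higher, 9 lower and 2 not called in GMP against CMP. Kdm6a, the X-linked relative of Kdm6b with the same H3K27 target, was 2.29-fold lower in GMP than in CMP (29.1 ± 0.72 against 66.6 ± 1.2 CPM). Riox1, a Jumonji oxygenase of the ribosome, moved against the members, 3.79-fold lower in CMP than in MPP (9.77 ± 0.94 against 37.7 ± 1.3 CPM) and 3.44-fold higher in GMP than in CMP. In CLP against MPP, 8 were higher and 6 lower, with Phf2, an H3K9 demethylase, 24.7-fold higher (118 ± 4.9 against 4.78 ± 0.29 CPM) and Kdm5c, an H3K4 demethylase, 3.85-fold higher. In CD11b+ cells against GMP, 9 of 14 were higher and 3 lower, among them Phf8 (2.93-fold higher) and Kdm4c (2.90-fold higher).

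Partners of Kdm1a in the CoREST complex, which joins it to histone deacetylases, split in CLP as 8 of 12 higher than in MPP and 2 lower, and Rcor1, the scaffold, was 8.65-fold higher (133 ± 1.3 against 15.4 ± 0.26 CPM). In MEP against CMP, 4 of 12 were higher and 7 lower. There Gfi1b, the repressor of the erythroid and megakaryocyte lineages that brings in Kdm1a, was 8.87-fold higher (707 ± 14 against 79.4 ± 2.9 CPM), while Kdm1a itself was 1.42-fold lower. Of the 9 partners of Kdm2b in PRC1.1, 4 were higher and 3 lower in MEP against CMP, where Kdm2b peaked, and Bcor, the scaffold of the complex, was 2.60-fold lower. In CLP against MPP, 5 of the 9 were higher and 3 lower, with the deubiquitinase gene Usp7 12.03-fold higher.

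Among the enzymes that write the marks, CLP against MPP had 7 of 11 H3K27 methylation genes higher and 3 lower (Suz12, a PRC2 subunit, 21.01-fold higher). It had 7 of 8 H3K9 genes higher and 0 lower (Wiz, 4.96-fold higher), 5 of 6 H3K36 genes higher and 1 lower (Nsd2, 4.92-fold higher), and 8 of 12 H3K4 genes higher and 4 lower (Kmt2b, 30.7-fold higher). In GMP against CMP, the step at which all members fell, 7 of 12 H3K4 genes were lower and 5 higher. All 7 passed 2-fold, against 27.9% of all genes, with Kmt2c 4.86-fold lower (17.4 ± 1.7 against 84.8 ± 1.4 CPM). A further 2 were 2-fold higher, against 15.8% of all genes. The H3K36 list had 4 of 6 lower and 2 higher (Ash1l, 4.89-fold lower), the H3K9 list 5 of 8 lower and 3 higher, and the H3K27 list 7 of 11 lower and 3 higher. Rbbp4, a histone chaperone of PRC2, was 2.22-fold higher in GMP. The summed level was higher in GMP than in CMP for the H3K27 list (1942 against 1134 CPM) and the H3K4 list (751 against 673 CPM). It was lower for the H3K36 list (240 against 351 CPM) and, with overlapping libraries, the H3K9 list (381 against 388 CPM).

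Early-response genes, which stimulated or handled cells switch on within minutes, were compared because Kdm6b is known to be inducible. In CMP against MPP, where Kdm6b was 7.92-fold higher, 20 of 23 were higher and 3 lower, where 35.0% of all genes were higher, with a median log2 fold change of 1.09, and Cxcl2 was 18.9-fold higher (290 ± 6.9 against 15.4 ± 0.30 CPM). In MEP against CMP, 22 of 23 were 2-fold lower, against 34.1% of all genes (median -4.02). There Nr4a1, a nuclear receptor gene, was at 11.1 ± 2.1 against 1484 ± 24 CPM. In GMP against CMP 14 were lower and 8 higher, against 41.9% and 31.8% of all genes, with a median of -0.76. Past 2-fold were 10 downward, against 27.9% of genes, and 0 upward, against 15.8%. In CLP against MPP, where Kdm6b was 4.26-fold higher, 17 were lower and 3 higher, against 37.4% and 39.6% of all genes. The summed level of the early-response genes was 17120 CPM in CMP and 17168 CPM in GMP. Of this the 5 most abundant genes of each gave 54.0% and 70.5%, so the sum need not follow the typical gene of the list. Over the 11 populations the correlation of log2 levels with that sum was r = 0.241 for Kdm6b, -0.102 for Jmjd1c and -0.423 for Kdm7a. Kdm5b had the same value as Kdm6b, 0.241, and the remaining members ran from -0.282 (Kdm5a) to 0.156 (Kdm3a). With Nr4a1 alone, r was 0.491 for Kdm6b, 0.329 for Jmjd1c, -0.255 for Kdm7a and 0.648 for Kdm5b. The remaining members then ran from -0.360 (Kdm4a) to 0.386 (Kdm3a). These values are given as a description.

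**Figure D5:**
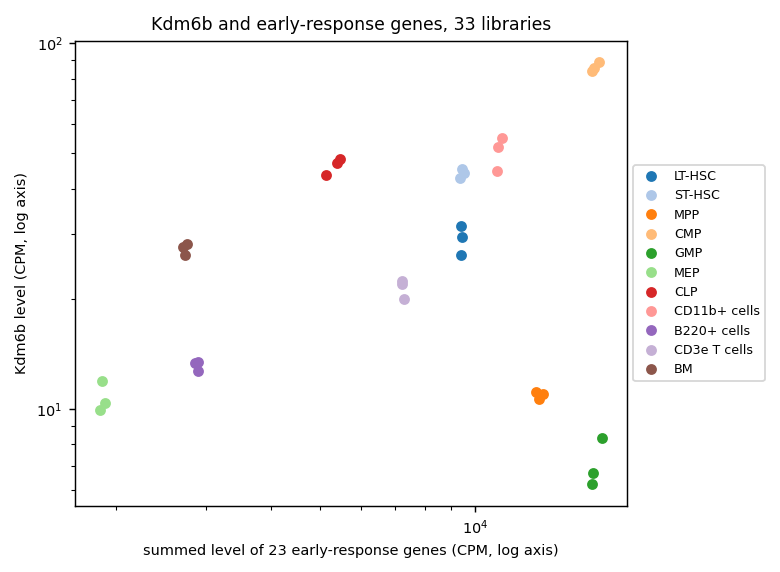
Kdm6b level (y axis, CPM, log) against the summed level of 23 early-response genes (x axis, CPM, log) in the 33 libraries, coloured by population. CMP and GMP lie at the same summed level, 17120 and 17168 CPM on average, at opposite ends of the Kdm6b axis, although the median log2 fold change of the 23 genes between GMP and CMP was -0.76.

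Likeness of population means was ranked by Pearson's r of mean log2 (CPM + 1) over 11 populations. The ranking held 10642 genes with a symbol and a mean of at least 10 CPM in a population. Numbered predicted genes, clone names, and mitochondrial, ribosomal protein and receptor segment genes were left out. The genes most like Kdm6b were Pibf1 (0.899), Zmym2 (0.869), Supt20 (0.860), Atg16l1 (0.859) and Cep85l (0.840). Without CLP they were Chmp4b (0.963), Pibf1 (0.936), Rsbn1l (0.921), Fbxo11 (0.908) and Hmbox1 (0.906), so 1 of the 5 was shared. For Jmjd1c they were Dync2h1 (0.942), Ccnt1 (0.927), Uba6 (0.925), Ptbp2 (0.902) and Zmym2 (0.896). Zmym2, a zinc finger gene of the CoREST list, was thus near both over 11 populations, but without CLP it was among the 5 nearest of neither. For Jmjd1c, 3 of the 5 (Ccnt1, Uba6 and Dync2h1) stayed among its nearest without CLP. Among the members themselves the closest pair other than Kdm1a and Kdm4a was Kdm2a and Kdm3a (r = 0.861, and 0.851 without CLP).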

How the data were processed

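The authors deposited raw read counts per gene for 33 libraries, 3 from each of 11 populations. The submitters' processing notes name cutadapt, HISAT2, HTSeq, DESeq2 and the build mm39. Versions, annotation and strandedness are not given in the sources used here. Totals ran from 11997186 to 32022325 counts.

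Gene IDs were matched to symbols, exon length and GC content in GENCODE M21 (GRCm38). Counts were filtered by group (filterByExpr), scaled by TMM and fitted with 1 mean per population in edgeR 4.0.16 (R 4.3.3; quasi-likelihood, 22 residual degrees of freedom), after a test on simulated data. Threshold: adjusted p of 0.05.

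Members and lists were chosen with earlier results of these data known. Lists cover other histone demethylases, CoREST, PRC1.1, H3K27, H3K9, H3K36 and H3K4 methylation and early-response genes. List genes could be named from the 3 largest changes per list and comparison that passed the test, 2-fold and 5 CPM; Gsk3a and Actb were chosen after their values were seen.

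Alternatives were scaling with RLE factors or by library size alone, the replicate block, DESeq2 1.42.0, all genes unfiltered, limma-voom (limma 3.58.1), only the populations compared, legacy dispersion, each library left out, and a spline trend on GC content and length per library taken out (genes covered, 96.6%). The fit without CLP was chosen after seeing the data.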

Additional observations from a re-analysis of the deposited data

How the results depend on the processing

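Each of the 90 member results (10 genes, 9 comparisons) was recomputed. None changed its call or direction by limma-voom, with dispersion estimated before a legacy fit or with the replicate number as a block, where the same 10 members were called in MPP against ST-HSC. Libraries with the same replicate number shared almost no deviations between populations (r from -0.0136 to 0.0731). Between libraries of a population the chi-square per gene, 1 for counting noise alone, ran from 1.06 to 2.51. Much of the deviations was thus counting noise, so this check cannot show whether the replicate numbers pair libraries. DESeq2 and RLE factors kept 88 of 90, no filter 89, fits of the 2 populations alone 87, and leaving out each library 531 of 540. No total of members called in a comparison moved by over 1.5 times. Counts by direction or past 2-fold did: 16 moved with the GC and length trend taken out, 11 with library size alone, and 1 each with RLE factors, by DESeq2 and without GMP replicate 2. With the trend taken out the split was 4 lower and 5 higher in place of 9 and 1 in B220+ cells against CLP, and 5 lower and 4 higher in place of 8 and 1 in CD3e T cells against CLP, while 2-fold falls in GMP against CMP were 2 in place of 5, or 10 with library size alone.

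Library size alone kept 81 and moved 50 by over 1.5-fold. It shifted the median log2 fold change of all genes by -0.991 in MPP against ST-HSC, 0.681 in CMP against MPP, 0.587 in CLP against MPP, -1.17 in GMP against CMP, -0.915 in MEP against CMP, 0.30 in CD11b+ cells against GMP, and -0.129 and -0.164 in B220+ and CD3e T cells against CLP. Its split was 2271 higher and 15159 lower genes in MPP against ST-HSC. RLE factors and DESeq2 shifted MPP against ST-HSC by -0.101 each. Signs turned for Kdm2b in MPP against ST-HSC (-0.64) and MEP against CMP (-0.63), Kdm7a in MEP against CMP (-0.71), Kdm5b in CLP against MPP (0.23), Kdm5a in B220+ cells against CLP (-0.014) and Kdm3a in CD3e T cells against CLP (-0.14).

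Taking out the trend on GC content and length kept 69 and moved 37 by over 1.5-fold. Signs turned for Kdm5a in MPP against ST-HSC (0.17), Kdm7a and Kdm5b in CMP against MPP (-0.043, -0.081), Kdm2b and Kdm5a in CLP against MPP (-0.62, -0.37), Kdm2b and Kdm5b in GMP against CMP (0.17, 0.0078), Kdm5b in MEP against CMP (0.46) and Kdm2a in CD11b+ cells against GMP (-0.12). They also turned for Kdm7a, Jmjd1c, Kdm3a and Kdm5b in B220+ cells against CLP (0.26, 0.15, 0.32, 0.73) and Kdm6b, Kdm7a and Kdm5a in CD3e T cells against CLP (0.0095, 0.40, 0.82). The cause was not tested, and genes of the other lists were not recomputed. Depth limits Kdm4a most, with 143 reads over the MPP libraries.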
